A study of Homo sapiens with 2 samples.

Results

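Interferon-stimulated genes are the genes that cells switch on when interferon reaches its receptors. Here they are described in MDA-MB-231, an established human breast cancer line, with and without knockdown of UGT8, the enzyme that makes galactosylceramide. The 48 genes are a list of known interferon targets, and each was read through probe sets whose only gene symbol in the platform annotation is that gene. Of these, 47 had such a probe set, out of 18244 genes on the array. STAT2 had none and was not analysed here. These genes had 119 probe sets in all, and 37 of the 47 genes lay past a floor on signal that is set out below.

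The control group was parental MDA-MB-231 cells, and the other group was a clone of this line with a stable knockdown of UGT8. Each group was hybridised to 1 array. Both were cultured in glucose-containing DMEM, and the labels name no added interferon or other agent. The knockdown group is 1 clone and the control is the line it came from, so that effects of the knockdown and of the choice of a clone cannot be told apart. The knockdown reagent is not given in the sources used here.

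Type I and type III interferons act through receptors that engage the kinases JAK1 and TYK2, and the resulting complex, which holds STAT2 and IRF9, binds a DNA element called the ISRE. Interferon gamma acts mainly through a different element, called GAS, and through IRF1. The induced genes block viruses at several steps, from membrane fusion to the copying of RNA, and many epithelial cancer lines keep some of them active without added interferon. In bulk RNA, fewer cells that express a gene and less RNA per cell cannot be told apart.

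The values are log2 signals after normalization between arrays, and each difference is knockdown minus control. With 1 array per group there is no replicate error and no test, so every difference describes these arrays only. Where a gene had several probe sets, the one with the highest mean signal was used. A gene whose mean was under 6.64, the median of all probe sets that are not controls, is called dim. One from there to 8.59, the 75th percentile, is called intermediate, and one above that is called bright. These classes sort probe sets by signal and not transcripts by abundance, since probes differ in how well they bind. The closest genes to the limits were OAS2 (mean 6.70) and EPSTI1 (6.54) at the floor and ISG20 (8.75) and HERC5 (8.57) at the upper limit.

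The promoters of 8 members are shown because members on both sides of 0 carry the same element, as counted further below. All are 200 bases from RefSeq's promoter table (build GRCh38.p14), 5′ to 3′ on the gene's strand, from 150 bases before the annotated start. For 3 genes that read higher on the knockdown array and 3 that read lower, the capitals mark matches to the ISRE letters. The higher ones are ISG15 (chr1:1013347-1013546, plus strand), IFIT1 (chr10:89392473-89392672, plus strand) and OAS3 (chr12:112938324-112938523, plus strand). The lower ones are IFITM1 (chr11:313890-314089, plus strand), IFITM3 (chr11:320811-321010, minus strand) and BST2 (chr19:17405581-17405780, minus strand).
ISG15: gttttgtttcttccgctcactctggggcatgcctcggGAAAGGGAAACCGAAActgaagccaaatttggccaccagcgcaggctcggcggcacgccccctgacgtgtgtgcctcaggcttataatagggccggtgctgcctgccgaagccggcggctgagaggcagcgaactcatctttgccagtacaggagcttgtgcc
IFIT1: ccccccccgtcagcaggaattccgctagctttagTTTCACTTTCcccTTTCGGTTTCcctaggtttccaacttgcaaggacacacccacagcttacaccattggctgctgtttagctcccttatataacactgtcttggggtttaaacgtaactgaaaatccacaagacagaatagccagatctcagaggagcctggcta
OAS3: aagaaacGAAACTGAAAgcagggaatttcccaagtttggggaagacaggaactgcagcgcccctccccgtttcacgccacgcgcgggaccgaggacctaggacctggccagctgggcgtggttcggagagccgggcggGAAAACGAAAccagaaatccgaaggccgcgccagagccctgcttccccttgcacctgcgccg
IFITM1: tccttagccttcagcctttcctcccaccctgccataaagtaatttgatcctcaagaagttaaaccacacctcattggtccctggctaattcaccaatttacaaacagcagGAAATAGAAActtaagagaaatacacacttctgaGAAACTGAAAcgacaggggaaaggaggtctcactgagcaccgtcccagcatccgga
IFITM3: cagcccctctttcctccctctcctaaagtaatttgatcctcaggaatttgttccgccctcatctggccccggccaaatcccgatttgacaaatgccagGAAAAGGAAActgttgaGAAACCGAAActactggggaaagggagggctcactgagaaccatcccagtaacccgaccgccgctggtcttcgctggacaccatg
BST2: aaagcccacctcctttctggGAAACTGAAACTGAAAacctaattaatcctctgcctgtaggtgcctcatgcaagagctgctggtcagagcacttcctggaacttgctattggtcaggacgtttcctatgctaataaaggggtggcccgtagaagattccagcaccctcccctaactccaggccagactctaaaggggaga
For the transcription factor genes IRF1 (chr5:132490724-132490923, minus strand) and IRF9 (chr14:24161115-24161314, plus strand), which have no ISRE match and also read lower, the capitals mark a match to the GAS letters.
IRF1: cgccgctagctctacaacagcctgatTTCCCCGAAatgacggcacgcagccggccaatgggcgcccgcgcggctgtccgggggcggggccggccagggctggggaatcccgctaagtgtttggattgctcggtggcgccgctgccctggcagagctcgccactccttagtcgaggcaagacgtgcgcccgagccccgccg
IRF9: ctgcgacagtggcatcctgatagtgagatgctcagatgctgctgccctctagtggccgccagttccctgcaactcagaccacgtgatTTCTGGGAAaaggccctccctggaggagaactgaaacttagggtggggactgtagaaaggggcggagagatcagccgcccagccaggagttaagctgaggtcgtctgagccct
The 6 promoters of the former set hold 2 ISRE matches each. They were picked as examples, and other members had from 0 matches (UBE2L6 and IRF1) to 3 (HERC5). The IRF1 and IRF9 matches begin 124 and 63 bases before the start. GAS matches in the former set are not marked. They begin 136 and 58 bases before the start in BST2 and 12 bases before it in IFITM1. ISG15, IFIT1, OAS3 and IFITM3 had none.

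Both arrays had a median of 6.64 after the authors' normalization. All 3 UGT8 probe sets read lower on the knockdown array, at 19.7% to 31.2% of the control signal. The 7 genes that mark this line, VIM, CD44 and KRT18 among them, read between 11.3 and 13.9. Of the 5 genes listed as low or absent in it, ESR1 and PGR were under the floor, whereas ERBB2, CDH1 and GATA3 were past it on these arrays. Of 8 leukocyte markers measured, PTPRC (3.56 in control and 3.40 in knockdown cells) and 5 others were under the floor, and CD14 and CD68 were past it. CD14 read 7.50 and 6.77. The summed linear signal of the leukocyte list was 997 for control and 1003 for knockdown cells. Both measured markers of plasmacytoid dendritic cells, the main interferon producers of blood, were under the floor (summed signal 47.7 and 50.7). Of 4 endothelial markers 2 were past it, PECAM1 (8.46 and 7.37) and KDR, and the list's summed signal was 589 and 366. The 3' minus 5' signal of ACTB, a measure of RNA integrity, was 0.49 in control and 0.90 in knockdown cells, and that of GAPDH was 0.18 and 0.19. The part of RNA integrity and of these marker differences in the results below was not tested.

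The members divided by signal class. On the deposited scale, bright members mostly read lower on the knockdown array and intermediate members mostly read higher. Centring on hybridisation controls, described below, puts most intermediate members below 0 too, along with the median of all genes past the floor (-0.48). A further list of interferon-induced genes, also given below, did not share this division. On the deposited scale its bright genes mostly read higher. Of the 37 members past the floor, 23 were above 0 and 14 below, with a median of 0.18 against 0.03 over all 10439 genes past the floor. At least 1.5-fold higher were IFIT2, IFIT1, OAS2 and ISG15, 4 of 37, where 4.96% of all genes past the floor were. Of these, OAS2 passed the floor only through its knockdown reading. At least 1.5-fold lower were IFITM1, GBP2, IFITM2 and PLSCR1, again 4 of 37, where 6.74% of all genes were. At 2-fold, 1 member was higher (background 0.738%) and 2 were lower (background 1.54%). At a log2 difference of 0.32, 12 members were higher (background 18.0%) and 10 were lower (background 16.1%).

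**Figure D1:**
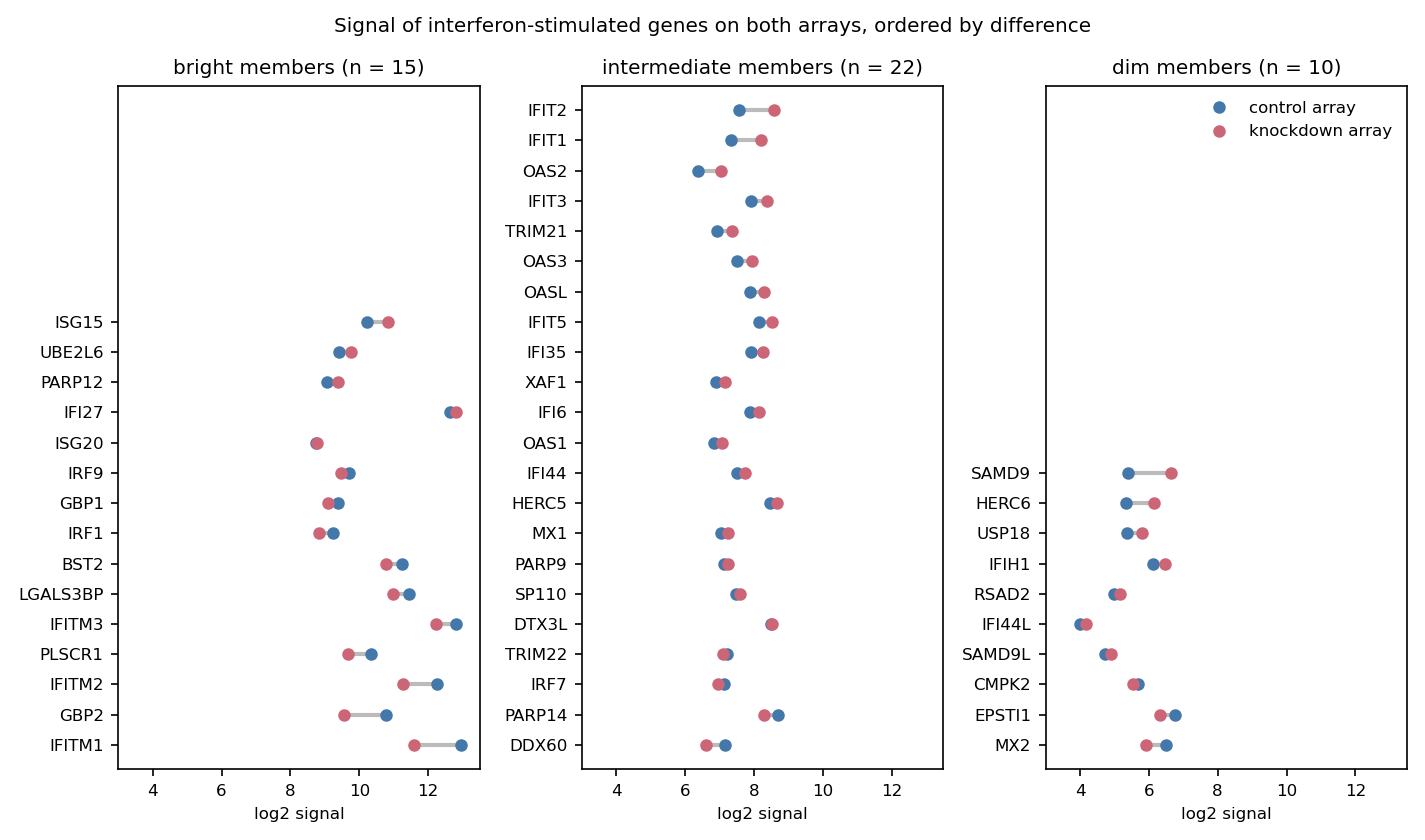
Log2 signal (horizontal axis) of the 47 measured interferon-stimulated genes on the control array (blue) and the knockdown array (red), 1 array per group, in 3 panels by signal class. On the deposited scale, in the bright panel 10 of 15 genes lie lower on the knockdown array, and in the intermediate panel 18 of 22 lie higher.

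The 15 bright members had a median difference of -0.42, while all 6031 bright genes had one of 0.04. Of them 10 were below 0 and 5 above. There were 4 bright members at least 1.5-fold lower (6.68% of all bright genes) and 1 at least 1.5-fold higher (4.03% of all bright genes). The 22 intermediate members had a median of 0.23, while all 4408 intermediate genes had one of 0.02. Of them 18 were above 0 and 4 below. There were 3 intermediate members at least 1.5-fold higher (6.24% of all intermediate genes) and 0 at least 1.5-fold lower (6.83% of all intermediate genes). The 10 dim members had a median of 0.18, with 7 above 0, 2 at least 1.5-fold higher (2.41% of all dim genes) and 0 at least 1.5-fold lower (1.23% of all dim genes). Across the 37 members past the floor, which share both arrays, the difference and the mean signal had a Spearman's rho of -0.45, and across all 10439 genes past the floor it was 0.01. Genes are not independent replicates, and the rho is a description.

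**Figure D2:**
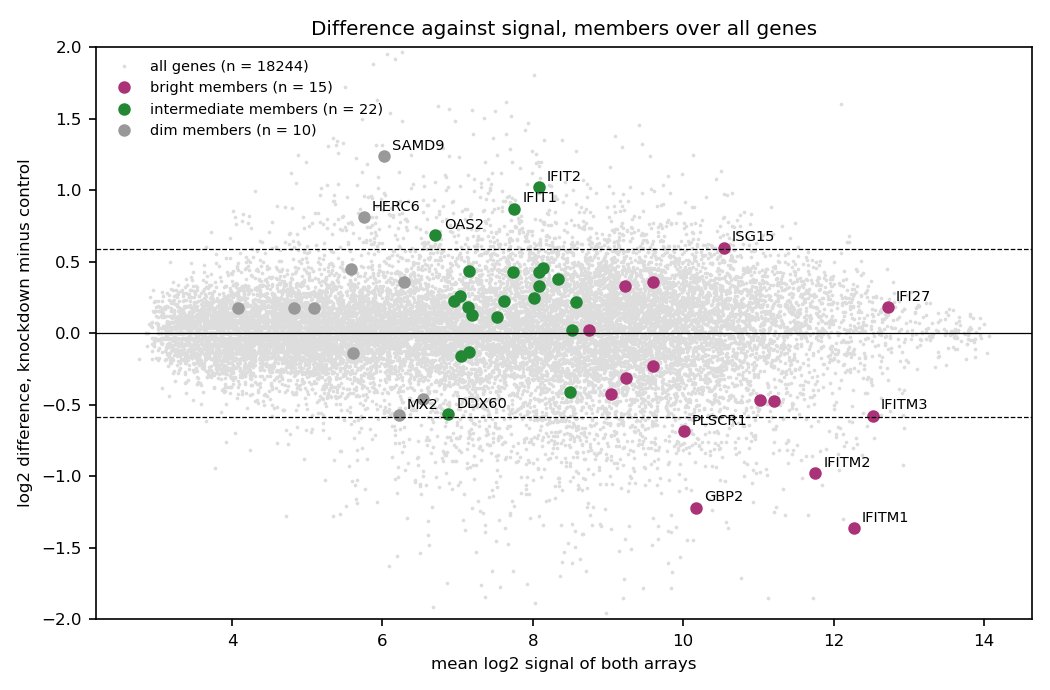
Log2 difference, knockdown minus control (vertical axis), against the mean log2 signal of both arrays (horizontal axis), with all 18244 genes in grey and the members coloured by signal class; dashed lines mark 1.5-fold, and 13 of all genes lie outside the vertical range. The members with the lowest differences, IFITM1, GBP2 and IFITM2, are bright, and IFIT2, IFIT1 and OAS2 are intermediate.

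These signs depend on the scale. The hybridisation controls, RNAs added in equal amounts at hybridisation and read by 18 probe sets, had a median difference of 0.51. Centred on them, every difference is 0.51 smaller, and the median of all genes past the floor is -0.48. On that scale 4 of the 37 members are above 0, namely IFIT2, IFIT1, OAS2 and ISG15. Centred instead on the poly-A controls, on the median gene or by a loess curve, 21 of the 37 are above 0. With each, 3 members are at least 1.5-fold higher and 6 lower, since ISG15 then misses that threshold and IFITM3 and DDX60 reach it. Over all genes past the floor, 3.38% to 4.25% are then at least 1.5-fold higher and 7.42% to 8.68% lower. Of the 37 members, 17 were read by probe sets marked for possible cross-hybridisation with other transcripts, among them 10 of the 15 bright ones. Signs below are on the deposited scale unless the text says otherwise.

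The measured transcription factor genes among the members, IRF9, IRF1 and IRF7, all read lower, by less than 1.5-fold each. STAT2 was not analysed. IRF9, the DNA-binding subunit of the complex that binds the ISRE, read 9.71 in control and 9.48 in knockdown cells (-0.23). Its 4 probe sets, all past the floor, gave differences from -0.27 to -0.18. IRF1, a factor induced by interferon gamma in particular, read 9.25 and 8.82 (-0.42), and its 3 probe sets past the floor were all lower. IRF7, which drives the interferon alpha genes, read 7.12 and 6.96 (-0.16). None of these factors had a probe set past the floor that read higher. The sensor of double-stranded RNA, IFIH1, was dim, with 6.11 in control and 6.46 in knockdown cells (0.35, or -0.16 centred on the hybridisation controls).

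The IFIT proteins bind foreign RNA and restrain its translation, and all 4 of their genes read higher, although IFIT3 and IFIT5 turn below 0 (-0.06 and -0.13) when centred on the hybridisation controls. IFIT2 read 7.57 in control and 8.59 in knockdown cells, 2.03-fold higher and the largest difference in this direction among members past the floor. A second IFIT2 probe set, under the floor, differed by 0.64. IFIT1 read 7.32 and 8.19 (1.83-fold). IFIT3 read 7.91 and 8.37 (0.45) and IFIT5 8.15 and 8.53 (0.38). Other RNA-directed effectors differed from them. The helicase-like gene DDX60 read 7.16 and 6.59 (-0.57), the lowest difference among the intermediate members. Its mean passed the floor only through the control array. The exonuclease gene ISG20 read 8.74 and 8.76 (0.02, or -0.49 with centring on the hybridisation controls).

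The OAS enzymes make oligoadenylates that activate the antiviral nuclease RNase L, and OASL is a relative without that activity. All 4 genes were above 0 on the deposited scale, but only OAS2 stayed above 0 when centred on the hybridisation controls. OAS2 read 6.36 in control and 7.05 in knockdown cells (1.61-fold). Its control reading lay under the floor, so that its mean passed the floor only through the knockdown array. The other 4 OAS2 probe sets were under the floor, and the mean over all 5 was 0.31. OAS3 read 7.52 and 7.95 (0.43) and OASL 7.87 and 8.30 (0.43). Both were read by a probe set with a cross-hybridisation mark, the only one of OASL. The other OAS3 probe sets were under the floor and differed by 0.24 and 0.01. OAS1 read 6.84 and 7.06 (0.22), with 4 probe sets between 0.06 and 0.26.

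ISG15 is a ubiquitin-like protein, and the genes for it and its conjugation were above 0 on the deposited scale. ISG15 read 10.24 in control and 10.84 in knockdown cells (1.51-fold), the largest difference of a bright member in this direction. Its only probe set carries a cross-hybridisation mark, and the difference of 0.60 was 0.52 to 0.57, under 1.5-fold, when centred on the poly-A controls, by loess or on the median gene. UBE2L6, its conjugating enzyme, read 9.41 and 9.77 (0.36), and HERC5, its main ligase, 8.46 and 8.68 (0.22). HERC6, a relative of HERC5, was dim at 5.34 and 6.16 (0.81). USP18, which removes ISG15 and dampens receptor signalling, was dim as well at 5.36 and 5.80 (0.45). When centred on the hybridisation controls, ISG15 (0.09) and HERC6 (0.30) were above 0 and the other 3 were not.

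Most membrane and secreted members read lower on the knockdown array. The IFITM proteins are small membrane proteins that hinder the fusion of viruses with the cell, and all 3 of their genes read lower. IFITM1 read 12.95 in control and 11.58 in knockdown cells, 38.8% of the control signal, and its probe sets differed by -1.37 and -1.31. IFITM2 read 12.25 and 11.27 (50.6% of control), with probe sets at -0.98 and -0.79. IFITM3 read 12.81 and 12.23 (67.0% of control), a difference of -0.58 that lies just short of 1.5-fold. These genes are close copies. IFITM2 and IFITM3 were read only by probe sets marked for possible cross-hybridisation, so that which copy they measured is uncertain. An IFITM1 probe set without that mark gave its -1.37.

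The phospholipid scramblase gene PLSCR1 read 10.35 in control and 9.66 in knockdown cells (62.1% of control). Its 6 probe sets were all lower, from -0.97 to -0.48, and the brightest without a cross-hybridisation mark differed by -0.52. BST2, which encodes tetherin, a protein that holds budding virus at the membrane, read 11.25 and 10.78 (-0.47), and its 3 probe sets past the floor lay between -0.54 and -0.47. LGALS3BP, a secreted galectin-binding glycoprotein, read 11.44 and 10.97 (-0.47). The remaining members of this group went the other way. IFI27 read 12.63 and 12.81 (0.18) with a second probe set at 0.24, and IFI6 read 7.89 and 8.14 (0.24). Both encode small hydrophobic proteins, and both lay below 0 when centred on the hybridisation controls. Of the 8 genes of the group, 6 were thus below 0, with a median of -0.52.

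**Figure D3:**
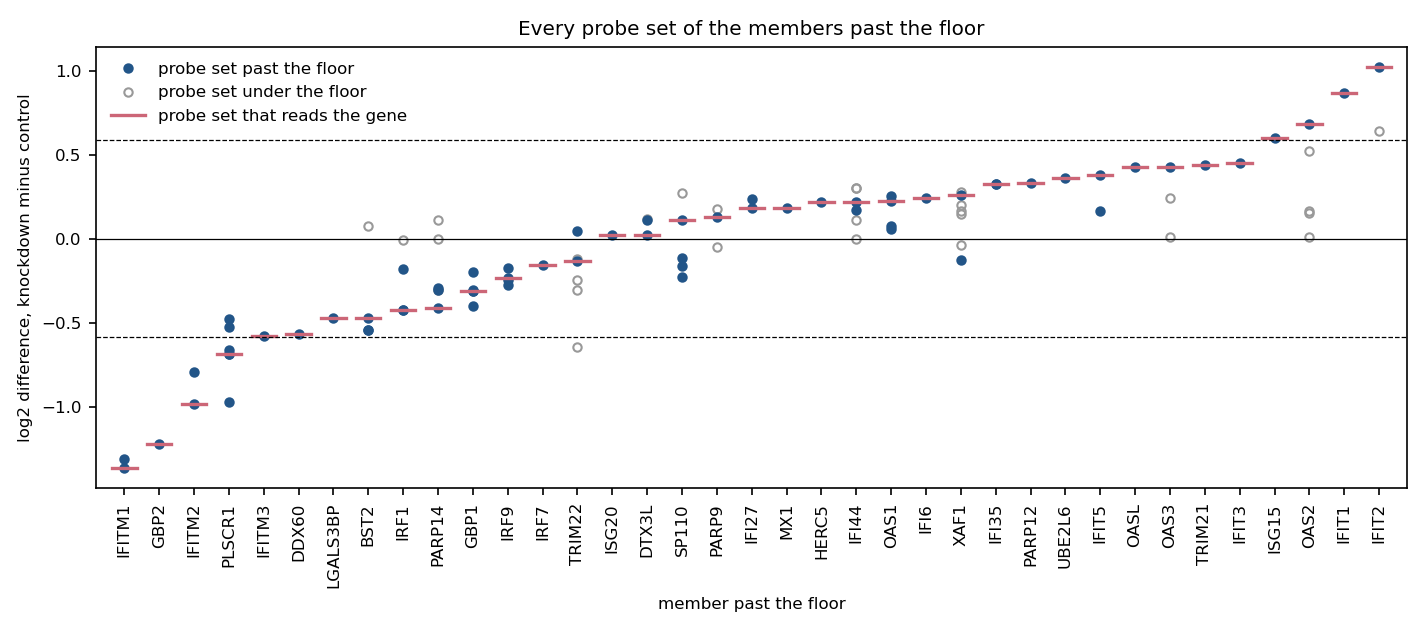
Log2 difference, knockdown minus control (vertical axis), of every probe set of the 37 members past the floor (horizontal axis), with filled circles for probe sets past the floor, open circles for those under it, and a red bar for the probe set that reads the gene; dashed lines mark 1.5-fold. The probe sets past the floor lie on 1 side of 0 for 14 of the 17 members that have at least 2 of them.

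Of the GTPase genes, both guanylate-binding ones read lower, and the dynamin-like ones differed in direction. GBP2, a guanylate-binding protein gene that responds strongly to interferon gamma, read 10.78 in control and 9.56 in knockdown cells, 42.9% of the control signal. It was read by 1 probe set, which carries a cross-hybridisation mark. GBP1 read 9.40 and 9.08 (-0.31), and its 5 probe sets were all lower, from -0.40 to -0.20. Of the dynamin-like genes, MX1 read 7.05 and 7.23 (0.18, or -0.33 centred on the hybridisation controls), and MX2 was dim at 6.50 and 5.93 (-0.57).

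The ADP-ribosyltransferase genes differed in direction, each by less than 1.5-fold. PARP12 read 9.06 in control and 9.38 in knockdown cells (0.33), and PARP14 read 8.70 and 8.28 (-0.41). The 3 PARP14 probe sets past the floor were all lower. PARP9 and its partner DTX3L, a ubiquitin ligase, differed by 0.13 and 0.02. Of the TRIM ligase genes, TRIM21, also a receptor for antibodies inside the cell, read 6.93 and 7.36 (0.44), and TRIM22 read 7.22 and 7.08 (-0.13). The nuclear body gene SP110 differed by 0.11, and its 4 probe sets past the floor ran from -0.23 to 0.11. Of these, 3 read lower, and the mean over all 5 SP110 probe sets was -0.02. SP110, TRIM22 and XAF1 were the 3 members whose probe sets past the floor pointed both ways. XAF1, a partner of the apoptosis inhibitor XIAP, differed by 0.26 or -0.13. IFI35 read 7.92 and 8.25, and both of its probe sets differed by 0.33. IFI44 read 7.50 and 7.72 (0.22). Except PARP14 and TRIM22, these genes were above 0 by their brightest probe set, and all of them lay below 0 when centred on the hybridisation controls.

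Among the dim members, SAMD9, a restriction factor for poxviruses, differed most. It read 5.40 in control and 6.64 in knockdown cells (1.24), and both readings lay under the floor, the latter by less than the rounding. Its neighbour and relative SAMD9L differed by 0.17. RSAD2 (0.18), which encodes viperin, and IFI44L (0.17) lay slightly above 0, and of these 4 genes SAMD9 alone stayed above 0 (0.73) when centred on the hybridisation controls. CMPK2, a nucleotide kinase gene next to RSAD2, differed by -0.14, although its other 2 probe sets read higher and the mean of all 3 was 0.04. EPSTI1 differed by -0.46.

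Several members sit in clusters on a chromosome, and the genes around them are given beside them. For each cluster, the 10 nearest protein-coding genes past the floor on each side were taken in RefSeq's order. The 4 IFIT genes lay between 0.38 and 1.02, and their 20 neighbours had a median of -0.17 with 8 above 0. The 3 IFITM genes lay between -1.37 and -0.58, and their neighbours, 14 because the chromosome ends there, had a median of 0.02 with 7 above 0. OAS1, OAS2 and OAS3 lay between 0.22 and 0.68, and their neighbours had a median of -0.01. GBP1 and GBP2 lay at -0.31 and -1.22, and their neighbours had a median of 0.09. HERC5 and HERC6 lay at 0.22 and 0.81 and their neighbours had a median of -0.32, and SAMD9L and SAMD9 lay at 0.17 and 1.24 with one of -0.04. The PARP9 and MX clusters had medians closer to those of their neighbours, but their genes differed in sign. PARP9, DTX3L and PARP14 (0.13, 0.02 and -0.41) had a median of 0.02 and their neighbours one of 0.07. MX1 and MX2 (0.18 and -0.57) had one of -0.20 and their neighbours one of -0.16. HERC6, SAMD9, SAMD9L and MX2 were dim whereas all neighbours were past the floor, so that in these clusters unlike sets stand side by side. Single neighbours varied widely, from -0.88 to 0.79 around the IFIT genes and from -1.21 to 0.55 around the IFITM genes. Around GBP1 and GBP2 they ran from -0.85 to 1.07, and around the SAMD9 pair from -0.72 to 0.83. Copy number itself was not measured.

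In the upstream part of the pathway, 1 gene past the floor reached 1.5-fold by its brightest probe set, the negative regulator SOCS3. Over all genes past the floor, 4.96% were at least 1.5-fold higher and 6.74% lower. These short lists were not tested against those shares. None of the 17 interferon ligand genes measured lay past the floor, and their differences ran from -0.37 to 0.28. IFNB1, the interferon beta gene, read 3.89 in control and 3.77 in knockdown cells. The receptor chains IFNAR1 (8.09 and 7.98) and IFNAR2 (7.74 and 7.70) and the kinases JAK1 (11.49 and 11.50) and TYK2 (9.39 and 9.21) differed by -0.18 to 0.01. A further IFNAR1 probe set differed by 0.52. IFNGR1, the ligand-binding chain for interferon gamma, read 11.26 and 10.70 (-0.57). Of the 8 receptor and kinase genes past the floor, none reached 1.5-fold and 6 were below 0. Of the 10 sensing genes past the floor, none reached 1.5-fold, with the DNA sensor gene CGAS at 0.46 and the RNA sensor gene RIGI at -0.40. Of 6 negative regulators, SOCS3, which inhibits JAK kinases, was 1.78-fold lower (8.99 and 8.16). A second SOCS3 probe set, under the floor, differed by -0.31.

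A further 44 interferon-induced genes were not among the members, and 33 of them lay past the floor. They had a median of 0.18, the same as the members, with 19 above 0, 3 at least 1.5-fold higher (4.96% of all genes past the floor) and 4 at least 1.5-fold lower (6.74% of all genes past the floor). Their 16 bright genes had a median of 0.29 with 12 above 0, and their 17 intermediate genes had one of -0.03 with 7 above 0. The division by signal class thus ran the other way than in the members. TNFSF10, which encodes the death ligand TRAIL, read 10.36 in control and 8.57 in knockdown cells (3.45-fold lower), and its 3 probe sets lay between -1.79 and -1.64. SLFN5 was 2.26-fold lower (7.86 and 6.68), the cytidine deaminase gene APOBEC3G 1.74-fold lower (8.72 and 7.92) and the DNA sensor gene IFI16 1.63-fold lower (10.82 and 10.12). A second APOBEC3G probe set, under the floor, differed by -0.13. In the other direction, the lysosomal reductase gene IFI30 was 1.97-fold higher (8.96 and 9.94) and SAMHD1, which depletes nucleotides, 1.80-fold higher (7.32 and 8.17). IFI30 and IFI16 had only probe sets with a cross-hybridisation mark. TRIM14 was 1.64-fold higher, but its brightest probe set without a cross-hybridisation mark was under the floor and differed by 0.04. Of the 5 genes past the floor that respond mainly to interferon gamma, 1 was at least 1.5-fold lower (6.74% of all genes past the floor). It was IDO1, 1.59-fold lower (6.99 and 6.31). Its mean passed the floor only through the control array.

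**Figure D4:**
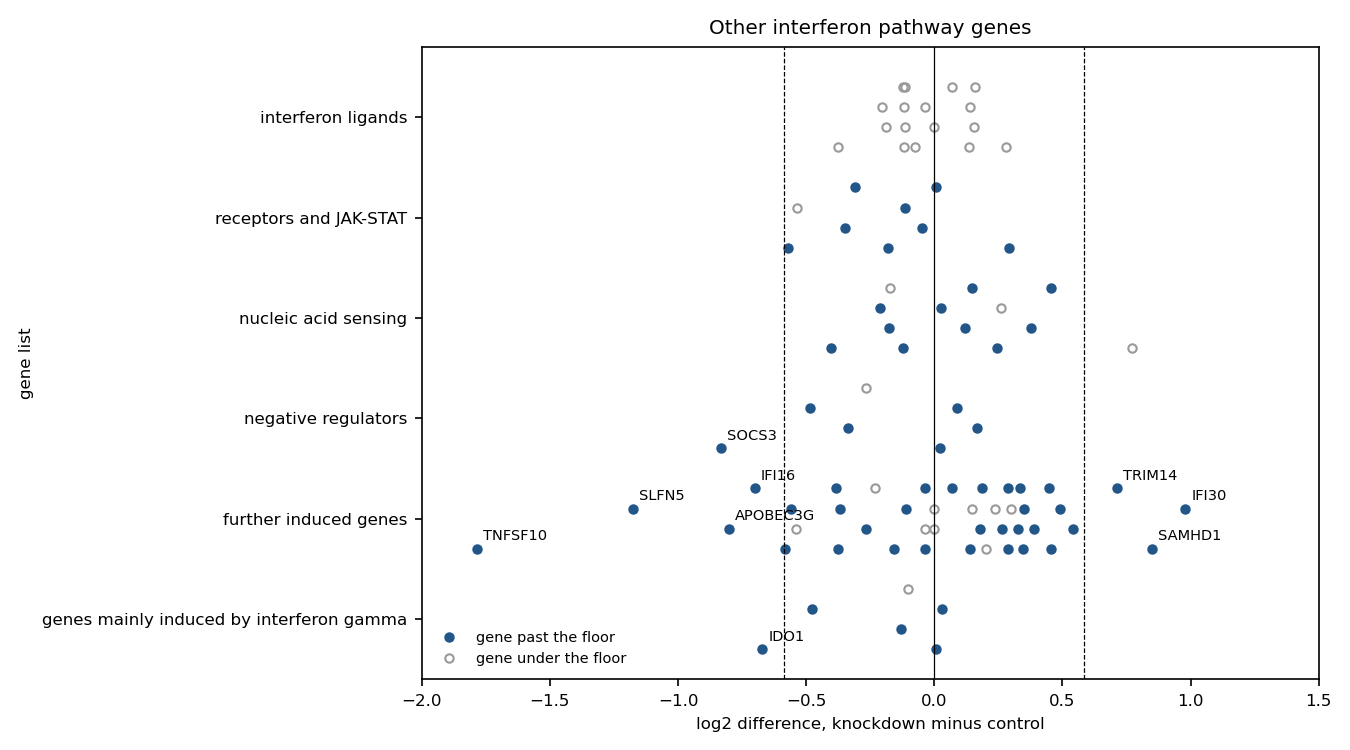
Log2 difference, knockdown minus control (horizontal axis), of interferon pathway genes that are not members, by list (vertical axis; height within a list carries no value), with filled circles past the floor and open circles under it, names for genes past the floor at 1.5-fold, and dashed lines at 1.5-fold. Interferon ligand genes are all under the floor, and TNFSF10 has the lowest difference (-1.79).

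The promoter windows of the members were searched for both elements. The ISRE was taken as GAAANNGAAA or its reverse complement TTTCNNTTTC, and GAS as TTCNNNGAA, which reads the same on both strands. A window held 250 bases before and 50 after an annotated start, and a gene with several windows counted if any held a match. RefSeq's table had windows for 39 of the 48 members, and none for GBP2, IFIT2, IFITM2, IRF7, MX2, OAS2, OASL, TRIM22 and USP18. An ISRE match was present for 28 of the 39 (71.8%), against 4.16% of all 15842 protein-coding genes in the table. It was present for 15 of the 20 members past the floor and above 0, and for 8 of the 10 below 0. A GAS match was present for 13 of the 39 (33.3%), against 8.98% of all protein-coding genes. In the same groups it was present for 5 of 20 and for 7 of 10. These 7 were BST2, DDX60, IFITM1, IRF1, IRF9, PARP14 and PLSCR1. Of the 14 GAS matches at distinct positions in the members' windows, 5 overlap an ISRE match, as in IFITM1. The members are few and were not drawn at random, the comparison was made after the values were seen, and a match of letters is a description and not a binding site.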

How the data were processed

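Biotin-labelled cRNA from total RNA was measured on 2 Affymetrix arrays, 1 per group, and each array's group comes from its genotype label. The deposited values are on the log2 scale and were made by the authors with RMA, per the submitters' processing notes; RMA corrects background, normalizes between arrays and summarises each probe set. For its version and the build, the entry is: not given in the sources used here. No scanner file was analysed. Such normalization removes any shift common to most transcripts.

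Of 49495 probe sets, 45278 had 1 symbol in the platform annotation and were used; symbols were updated through NCBI RefSeq's gene table (GRCh38.p14), which held 18201 of the 18244 symbols. Differences, classes, counts and medians were computed with Python 3.11.15, pandas 2.3.3 and statsmodels 0.14.6 (loess fraction 0.3), and the procedure was tested on simulated data. No test was run, because each group holds 1 array; their number limits the precision. For the 6067 genes with 2 or more such probe sets past the floor, their differences had a median SD of 0.083, which is no replicate error. The members, the gene lists and the signal classes were chosen with earlier results of these data known. All members could be named, as could listed pathway genes past the floor at 1.5-fold and UGT8, JAK1, TYK2, IFNAR1 and IFNAR2, and 1 further gene that is not reported here; IFNB1, IFNGR1, CGAS and RIGI were named after their values were seen. Alternatives changed 1 choice at a time: the fold threshold, the floor, the array that sets the class, averaging of probe sets, omission of cross-hybridising probe sets, and centring.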

Additional observations from a re-analysis of the deposited data

How the results depend on the processing

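The count of members at 1.5-fold was 4 in each direction. It was 1 higher and 2 lower at 2-fold, 12 higher and 10 lower at a log2 difference of 0.32, and 1 higher with the floor at the 75th percentile. Without probe sets marked _s_at or _x_at, which left 24 of the 37 members past the floor and 7 of the 15 bright ones, 1 member was lower, IFITM1. Centred on the hybridisation controls, 0 were higher and 14 lower, where 0.479% of all genes past the floor were higher and 37.1% lower. The median of members past the floor (0.18) turned to -0.42 with the floor at the 75th percentile. Centred on the hybridisation controls it was -0.33, where that of all genes past the floor was -0.48. The bright median (-0.42) was -0.31 with classes from the knockdown array alone, -0.31 after averaging of probe sets, and -0.94 centred on the hybridisation controls. The dim median (0.18) was 0.26 with classes from the control array alone and -0.34 centred on the hybridisation controls. Which centring is nearer to the RNA amounts was not tested. In the other 32 of 47 comparisons of a count or median with its alternative, the count stayed within 1.5 times and the median within 0.083. No paired analysis was possible because each group holds 1 array.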
